A study of Mus musculus with 40 samples.

Results

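The 9 genes described here encode growth hormone (Gh), prolactin (Prl), pro-opiomelanocortin (Pomc), vasopressin (Avp), oxytocin (Oxt), melanin-concentrating hormone (Pmch), thyrotropin-releasing hormone (Trh), corticotropin-releasing hormone (Crh) and PACAP (Adcyap1). They were chosen by symbol, starting from high Gh counts in a few pre-KD hippocampal libraries, and all 9 were found among the 47643 genes of the tables. The libraries are 40 RNA-seq libraries of mouse brain, 20 of the hippocampus and 20 of the frontal cortex. Recipients were wild-type, germ-free Swiss Webster mice that received stool from 10 human donors with refractory epilepsy, collected before a ketogenic diet (pre-KD) or after about 1 month on it (post-KD). Mice were 6 to 8 weeks old, tissue was taken on day 4 after the transfer, and each library was a pool of 6 mice. Each donor gave a pre-KD and a post-KD sample, so there were 20 cohorts and 10 libraries per region and condition. Libraries are named here by region, condition and donor pair, from 1 to 10. The spread between mice within a pool is not seen, and each P value measures the spread between pools.

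Growth hormone and prolactin are related hormones that are made by separate cell types of the anterior pituitary, which share the transcription factor Pit-1. Vasopressin and oxytocin are made as precursors with their carrier neurophysins in large hypothalamic neurons, and Pomc is cut into ACTH, melanocortins and beta-endorphin in pituitary and arcuate cells. Pmch and Trh mark further hypothalamic neurons, whereas Crh and Adcyap1 are also made by neurons of the hippocampus and the cortex, Crh mainly by interneurons.

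Between 1140756 and 1947416 counts per hippocampal library and between 1188447 and 2095352 per frontal cortical library lay on genes. With hand-written marker lists, 8 of 8 hippocampal markers had a higher fitted level in the hippocampus, 4 of them past an adjusted p of 0.05. Of 8 cortical markers, 5 were lower in the hippocampus and 2 were higher at that threshold. Summed over the 9 genes, hippocampal libraries had 0 to 496 counts, and frontal cortical ones had 33 to 193. Most of their values are therefore small counts in which a single read matters. A count of 0 in a library still allows up to 3 counts, and this limit covers counting error only. In these pools, fewer cells of a type and less RNA per cell cannot be told apart.

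Some of these genes share read-length stretches with another gene, and the run shared by Avp and Oxt is shown for that reason. How reads from shared stretches were counted is not stated. Avp (chromosome 2, 130580620 to 130582554, minus strand, GRCm38) and Oxt (chromosome 2, 130576173 to 130577054, plus strand) lie 3565 bp apart. Of the stretches of read length, 69 bases, in the Avp transcript, 59 of 509 are also in the Oxt transcript (11.6%). The longest shared run is 127 bases of coding sequence in exons 1 and 2 of 3 of either gene, in the part that encodes the neurophysin. It covers bases 144 to 270 of the Avp transcript and 156 to 282 of the Oxt transcript in GENCODE M21:
Avp and Oxt: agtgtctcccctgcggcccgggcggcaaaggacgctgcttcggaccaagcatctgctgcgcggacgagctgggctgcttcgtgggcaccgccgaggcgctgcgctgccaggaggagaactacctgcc
The remaining stretches of both genes are unshared, so most reads can be assigned. Pmch (chromosome 10, 88091072 to 88092375, plus strand) overlaps Parpbp on the opposite strand, and 301 of its 681 stretches are also in Parpbp transcripts. Parpbp held 5 counts over the hippocampal and 4 over the frontal cortical libraries, and whether Pmch reads were lost in the overlap was not tested. Prl (chromosome 13, 27057570 to 27065205, plus strand) overlaps the antisense gene Gm47888, which was not used here, and whether counting used the strand is not stated. Gh (chromosome 11, 106300271 to 106301865, minus strand) shared 0 of 794 stretches with another gene, and Prl shared 0 of 1405.

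Prl is also shown with the 250 bases before its start (chr13:27057320-27057569, GRCm38.p6, plus strand, from RefSeq), because Pit-1 drives both Prl and Gh in the pituitary. Capitals mark matches to the Pit-1 letters TATNCAT or their reverse complement ATGNATA:
Prl: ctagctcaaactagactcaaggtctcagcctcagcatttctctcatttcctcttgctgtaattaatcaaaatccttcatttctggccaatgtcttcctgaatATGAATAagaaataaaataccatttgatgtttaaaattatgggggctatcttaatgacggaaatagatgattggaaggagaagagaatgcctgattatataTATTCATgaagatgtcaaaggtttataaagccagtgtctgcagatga
The 2 matches begin at positions -148 and -47 before the start. At least 1 match was found in 7.92% of 32851 such windows of mouse genes, and at least 2 in 1.26%. Windows were held for 7 of the 9 genes, without Gh and Crh, and the same letters were also found once before Adcyap1 and in none of the other 5. A match describes letters only.

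Gh was the gene by which the set was chosen, so its hippocampal values are a description with no test. In the pre-KD hippocampus, pairs 1 to 10 had 1, 0, 82, 0, 0, 0, 11, 261, 0 and 4 Gh counts. In the post-KD hippocampus they had 4, 0, 4, 0, 0, 0, 0, 0, 5 and 1. Pairs 3 and 8 pre-KD thus held 92.0% of the 373 hippocampal Gh counts, and 11 of 20 libraries had none. As CPM, counts scaled to the library size with TMM factors, pre-KD libraries had 21.6 ± 50.7 and post-KD libraries 1.0 ± 1.48 (mean ± SD, n = 10 each), with medians of 0.297 and 0. Next in order, pair 7 pre-KD had 11 counts, and below it every library had 5 or fewer.

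Prl was high in the same hippocampal libraries as Gh, and in 1 that had no Gh. Its pre-KD counts were 0, 0, 123, 5, 0, 0, 0, 187, 0 and 0 in pairs 1 to 10. Its post-KD counts were 0, 0, 7, 53, 0, 1, 0, 0, 0 and 0. Pairs 3 and 8 pre-KD held 82.4% of 376 counts. Next came post-KD pair 4, with 53 Prl counts and 0 Gh counts. Pair 7 pre-KD, with 11 Gh counts, had 0 Prl counts. The ratio of the hormones also differed between libraries, with 82 Gh and 123 Prl counts in pair 3 and 261 and 187 in pair 8.

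**Figure D1:**
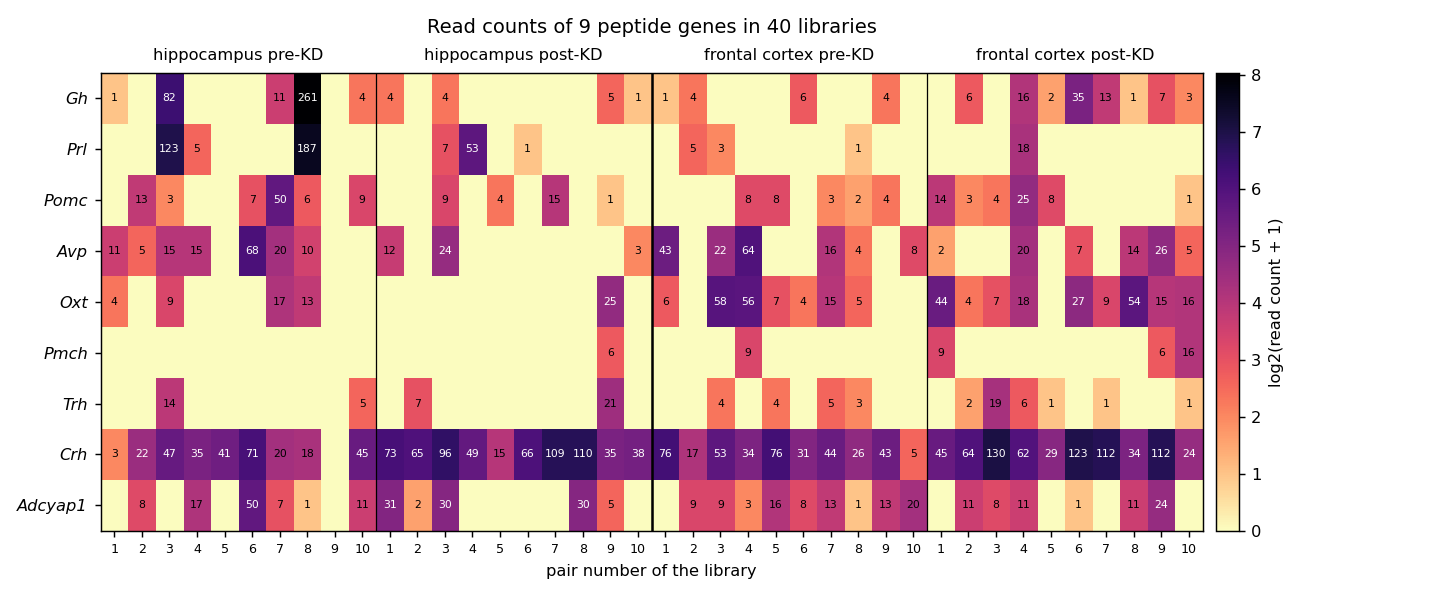
Read counts of the 9 genes (rows) in 40 libraries (columns, by region, condition and pair number), coloured by log2(read count + 1), with blank cells at 0. Gh and Prl have their largest counts in hippocampal pre-KD pairs 3 and 8 (82 and 261, 123 and 187), Crh has counts in 39 libraries, and hippocampal pre-KD pair 9 has none of the 9 genes.

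The other genes of the pituitary were at or near 0 where Gh and Prl were high. The pituitary list comprised 12 genes other than the 9. In pair 3 pre-KD it had 1 count, of Pitx1, a transcription factor of early pituitary cells, and in pair 8 it had 0. Pou1f1, which encodes Pit-1, had 0 counts in all 40 libraries, as did Tshb, Lhb, Fshb, Tbx19 and Gnrhr. Cga, the shared subunit of the glycoprotein hormones, had at most 6 counts in a hippocampal and 9 in a frontal cortical library. Lhx3, another pituitary and motor neuron transcription factor, had 25 counts in post-KD hippocampal pair 4, the library with 53 Prl counts. It also had 7 in post-KD hippocampal pair 10, and 23 and 14 in post-KD frontal cortical pairs 1 and 6, the latter with 35 Gh counts. Summed over the list, libraries ranged from 0 to 6 counts in the pre-KD hippocampus and from 0 to 25 in the post-KD hippocampus. Frontal cortical libraries ranged from 0 to 9 pre-KD and from 0 to 23 post-KD.

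Other features of pairs 3 and 8 were measured beside these counts. They had the 2 largest totals of the 20 hippocampal libraries, 1947416 and 1823041 counts. Pair 8 had 15750 genes with a count and pair 3 had 14277, against a hippocampal median of 12482. Choroid plexus markers summed to 3742 and 2561 counts in pairs 3 and 8, within the pre-KD range of 1607 to 5009, and to 6891 in post-KD pair 4. Hippocampal markers summed to 1947 and 1447 counts, within 1087 to 2073. The hypothalamus list, of which 15 of 16 genes were matched, summed to 2 and 0 counts. The part of these features in the Gh and Prl counts was not tested.

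Pomc was highest in pair 7 pre-KD, the library with the third-highest Gh count, and was low in pairs 3 and 8 pre-KD. Its pre-KD hippocampal counts were 0, 13, 3, 0, 0, 7, 50, 6, 0 and 9 in pairs 1 to 10, and its post-KD counts were 0, 0, 9, 0, 4, 0, 15, 0, 1 and 0. Pair 7 was the highest library in either condition, with 11 Gh counts pre-KD and 0 post-KD. Pairs 3 and 8 pre-KD held 3 and 6 of the 117 counts. Pomc had 0 to 8 frontal cortical counts pre-KD and 0 to 25 post-KD, with the 25 in pair 4.

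Avp and Oxt, the neurohypophysial hormones, had counts in hippocampal pre-KD pairs 3 and 8, Avp 15 and 10 and Oxt 9 and 13. Avp was highest in pair 6 with 68 counts, and the pre-KD series over pairs 1 to 10 was 11, 5, 15, 15, 0, 68, 20, 10, 0 and 0. Post-KD, Avp had counts in only 3 hippocampal libraries, 12 in pair 1, 24 in pair 3 and 3 in pair 10. Oxt was found in 5 hippocampal libraries, with 4, 9, 17 and 13 counts in pre-KD pairs 1, 3, 7 and 8 and 25 in post-KD pair 9. All 5 of them also had Gh counts, which were 1, 82, 11, 261 and 5 in that order, while 4 libraries had Gh without Oxt. These hippocampal Gh values chose the set, so no test was made of them. Over frontal cortical libraries log2(CPM + 1) of Gh and Oxt had Pearson's r = -0.07 (permutation p = 0.762, adjusted p = 0.900 over 36 pairs of genes) and Spearman's rho = -0.13 (permutation p = 0.592, adjusted p = 0.961).

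The hypothalamic releasing peptides and Pmch were mostly elsewhere. Trh had 14 counts in hippocampal pre-KD pair 3 and 0 in pair 8, 5 in pre-KD pair 10, 7 in post-KD pair 2 and 21 in post-KD pair 9. Pmch had 6 counts in the whole hippocampal set, all in post-KD pair 9. That library had 7 of the 9 genes, with Oxt at 25 and Trh at 21, the highest hippocampal counts of both. It also held 9 counts of Ghrh, the growth hormone-releasing hormone, which was at 0 in the other hippocampal libraries. In the frontal cortex Ghrh was at 0 except in the same post-KD cohort of pair 9, with 17 counts, where Pmch had 6, Gnrh1 9 and Nkx2-1 9. Of the hypothalamus list, Hcrt (orexin) had 22 counts in post-KD frontal cortical pair 1 and at most 1 elsewhere, and that library had 9 Pmch and 44 Oxt counts.

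Crh was spread over 19 of 20 hippocampal libraries. Pre-KD hippocampal Crh counts were 3, 22, 47, 35, 41, 71, 20, 18, 0 and 45 in pairs 1 to 10. Post-KD they were 73, 65, 96, 49, 15, 66, 109, 110, 35 and 38. Its top 2 hippocampal libraries held 22.9% of 958 counts, where the median over 12297 genes with at least 100 hippocampal counts was 23.1%. Adcyap1 was less even, with counts in 11 hippocampal libraries and 42.2% of its 192 counts in the top 2. It was highest in pre-KD pair 6 with 50, and had 0 and 1 in pre-KD pairs 3 and 8. Pre-KD pair 9 had 0 counts of all 9 genes, Crh included, with 1474736 counts and 11588 genes detected. It had 478 counts of Sst, an interneuron peptide, and 739 of Cck, both within the range of the other libraries.

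Levels were compared between genes as mean CPM per kilobase of exon. The labels name a kit that covers whole transcripts, but the study also lists a kit that reads transcript ends, for which length scaling would not hold. In the hippocampus the order was Crh (24.1), Gh (13.1), Avp (10.1), Prl (7.89), Oxt (3.99), Pomc (2.93), Adcyap1 (1.69), Trh (1.04) and Pmch (0.259). For the frontal cortex it was Crh (26.0), Oxt (18.3), Avp (12.4), Gh (3.50), Pomc (1.76), Pmch (1.48), Adcyap1 (1.21), Trh (0.964) and Prl (0.575). The SD over 20 libraries exceeded the mean for 8 of 9 genes in hippocampal and 7 of 9 in frontal cortical libraries, and the ranges of all neighbours in either order overlapped. The hippocampal places of Gh and Prl rest on pre-KD pairs 3 and 8, and their medians over 20 libraries were 0.

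**Figure D2:**
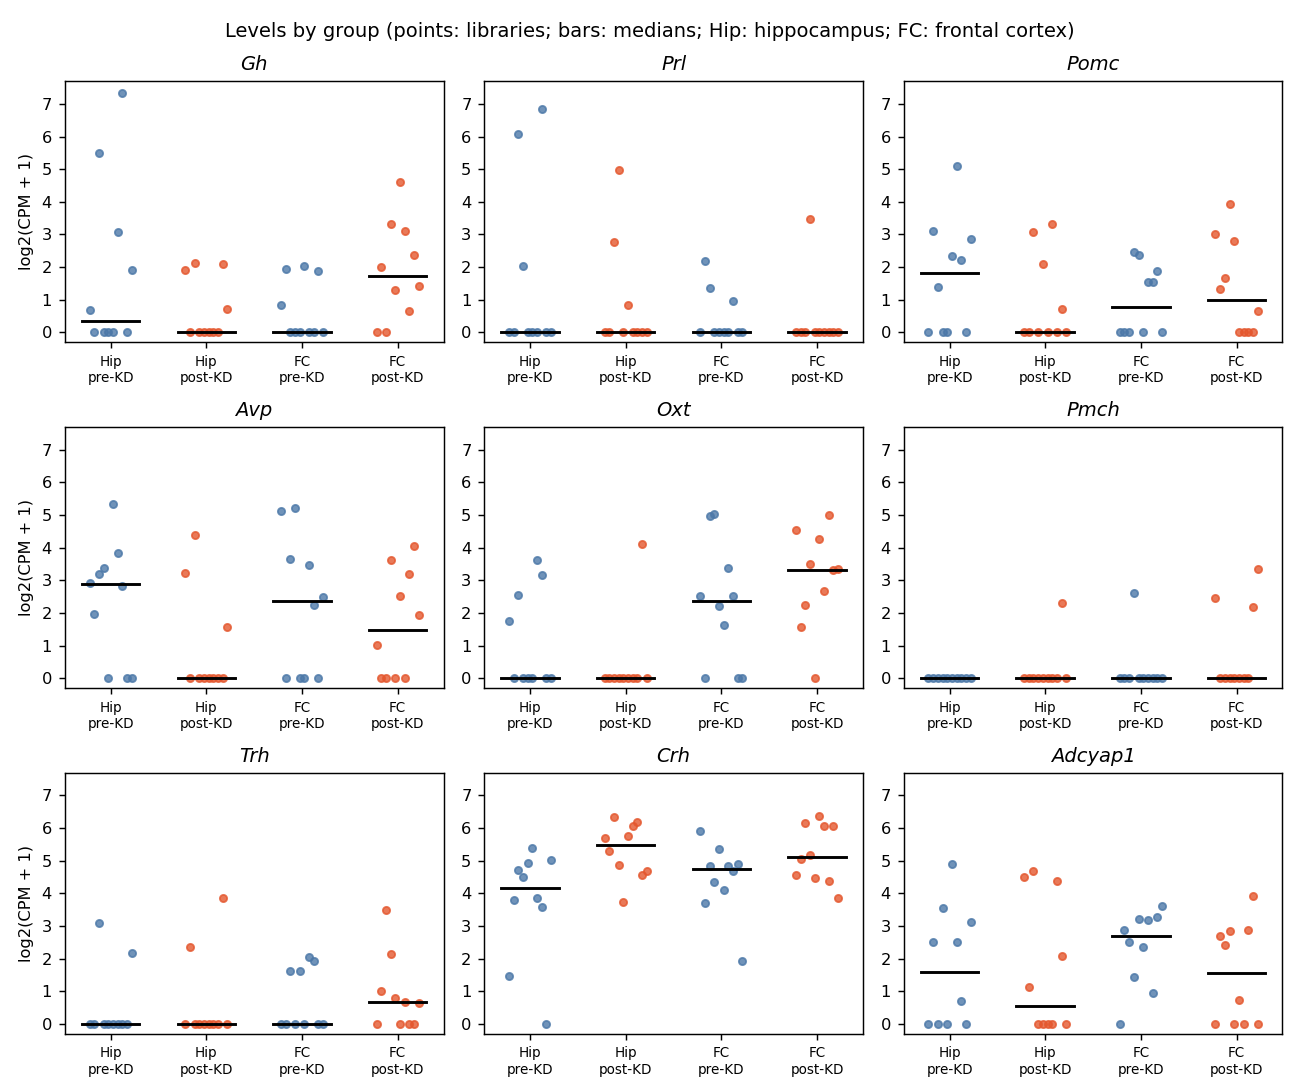
Levels of the 9 genes as log2(CPM + 1) in hippocampus (Hip) and frontal cortex (FC), with 10 libraries per group as points (blue, pre-KD, and red, post-KD) and the median as a bar. Medians of Prl and Pmch are at 0 in all groups, and Crh has the highest median in every group.

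In the hippocampus, post-KD and pre-KD libraries were compared for description, since this contrast chose the set. The fitted log2 fold change post-KD over pre-KD was -4.36 for Gh, -2.27 for Prl, -1.45 for Pomc, -1.51 for Avp and -0.70 for Oxt. It was 0.63 for Trh, 1.23 for Crh and 0.28 for Adcyap1, and Pmch had too few counts to enter. Of 8 genes, 3 had an unadjusted p under 0.05 against 10.1% of 17529 genes, and 0 passed the adjusted threshold against 0.0057%, from which nothing is read here. The Gh value was -2.05 with the donor pair as a block, -2.48 with DESeq2, -2.40 without pair 8 and -4.37 with no filter on low counts. With no filter Gh passed the adjusted threshold, so that count of 0 depended on the filter, and nothing is read from this either. Without the pre-KD libraries of pairs 3 and 8 the value was -0.40 for Gh and 3.01 for Prl, whose sign thus turned on those libraries. Crh then stood at 1.24. Crh counts were higher post-KD in 8 of 10 pairs on the CPM scale, with 18.9 ± 13.3 CPM pre-KD and 44.8 ± 23.1 post-KD (mean ± SD, n = 10 each), and the groups overlapped.

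The frontal cortical libraries were not used to choose the set, and there 0 of 9 genes passed an adjusted p of 0.05 with edgeR (1 of 17873 genes did, 0.0056%). At an unadjusted p under 0.05, Gh and Crh were higher post-KD, 2 of 9 genes, against 9.68% of all genes in either direction and 5.01% in this one. Of 4 globin genes, 3 were tested as blood markers, and 2 of them were also higher post-KD at an unadjusted p under 0.05, Hba-a1 (0.48 ± 0.15, SE, adjusted p = 0.122) and Hbb-bs (0.41 ± 0.15, SE, adjusted p = 0.136), while Hbb-bt had -0.01 and Hba-a2 was at 0. Summed globin levels were 417 to 1116 CPM pre-KD and 538 to 1376 post-KD, with medians of 646 and 942, and their part in the Gh and Crh values was not tested. Gh counts in pairs 1 to 10 were 1, 4, 0, 0, 0, 6, 0, 0, 4 and 0 pre-KD and 0, 6, 0, 16, 2, 35, 13, 1, 7 and 3 post-KD. The post-KD library was higher in 8 pairs, lower in 1 and equal in 1, and the groups overlapped. Levels were 0.936 ± 1.35 CPM pre-KD and 5.09 ± 7.13 post-KD (mean ± SD, n = 10 each), a log2 fold change of 2.35 ± 1.14 (SE, p = 0.0425, adjusted p = 0.476). With the donor pair as a block the value was 2.48 and p was 0.113, so the unadjusted call was lost. It was also lost without pair 6, the highest library (2.04, p = 0.132), and without any of pairs 4, 5, 7, 8 and 10.

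Crh was found in every frontal cortical library. Its counts were 76, 17, 53, 34, 76, 31, 44, 26, 43 and 5 pre-KD and 45, 64, 130, 62, 29, 123, 112, 34, 112 and 24 post-KD in pairs 1 to 10. Levels were 25.8 ± 15.6 CPM pre-KD and 42.9 ± 25.4 post-KD (mean ± SD, n = 10 each), higher post-KD in 7 of 10 pairs. The log2 fold change was 0.73 ± 0.33 (SE, p = 0.0316, adjusted p = 0.407), and 0.80 with the donor pair as a block (p = 0.0196, adjusted p = 1.0). Without pair 6 it was 0.52 (p = 0.151), and the unadjusted p also rose above 0.05 without pair 2, 3, 7 or 9. The direction was that of the hippocampal value, and whether the change differed between regions was not tested.

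The remaining 7 genes had unadjusted p values of 0.180 to 0.634 in the frontal cortex. Prl had 27 frontal cortical counts, with 5, 3 and 1 in pre-KD pairs 2, 3 and 8 and 18 in post-KD pair 4 (log2 fold change 0.70 ± 1.42, SE, p = 0.624, adjusted p = 0.998). Avp had a log2 fold change of -1.19 ± 0.88 (SE, p = 0.180, adjusted p = 0.864), with 43 and 64 counts in pre-KD pairs 1 and 4. Oxt, at 0 to 58 counts pre-KD and 0 to 54 post-KD, had 0.34 ± 0.71 (SE, p = 0.634, adjusted p = 0.998). Pmch, Pomc, Trh and Adcyap1 had 1.6, 1.01, 0.67 and -0.54. Pmch had counts in only 4 frontal cortical libraries, 9 in pre-KD pair 4 and 9, 6 and 16 in post-KD pairs 1, 9 and 10. Without pair 10 its value was 0.59 (p = 0.688, adjusted p = 0.997). Without pair 4 every pre-KD library was at 0, and the fitted value, which then depends on the prior count, was 4.72 (p = 0.00285, adjusted p = 0.162).

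Between the regions of the same cohorts, Oxt was lower in the hippocampus than in the frontal cortex, and it was the only one of the 8 genes tested here that passed an adjusted p of 0.05. Over all genes, 2.85% of 19422 passed, and 1.98% passed as lower in the hippocampus. Frontal cortical Oxt counts over pairs 1 to 10 were 6, 0, 58, 56, 7, 4, 15, 5, 0 and 0 pre-KD and 44, 4, 7, 18, 0, 27, 9, 54, 15 and 16 post-KD. It was found in 16 of 20 frontal cortical and 5 of 20 hippocampal libraries, and the 5 cohorts with hippocampal Oxt all had it in the frontal cortex. Levels were 2.14 ± 4.55 CPM in hippocampal and 9.85 ± 10.8 in frontal cortical libraries (mean ± SD, n = 20 each), lower in the hippocampus in 13 cohorts, higher in 3 and equal in 4. With a term for each cohort the log2 fold change was -3.86 ± 1.03 (SE, adjusted p = 0.00966). The median over all genes in this contrast was -0.17. Without pair 4 it was -3.31 (adjusted p = 0.0879) and without the cohort block -2.18 (adjusted p = 0.0563), so the call depended on both.

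**Figure D3:**
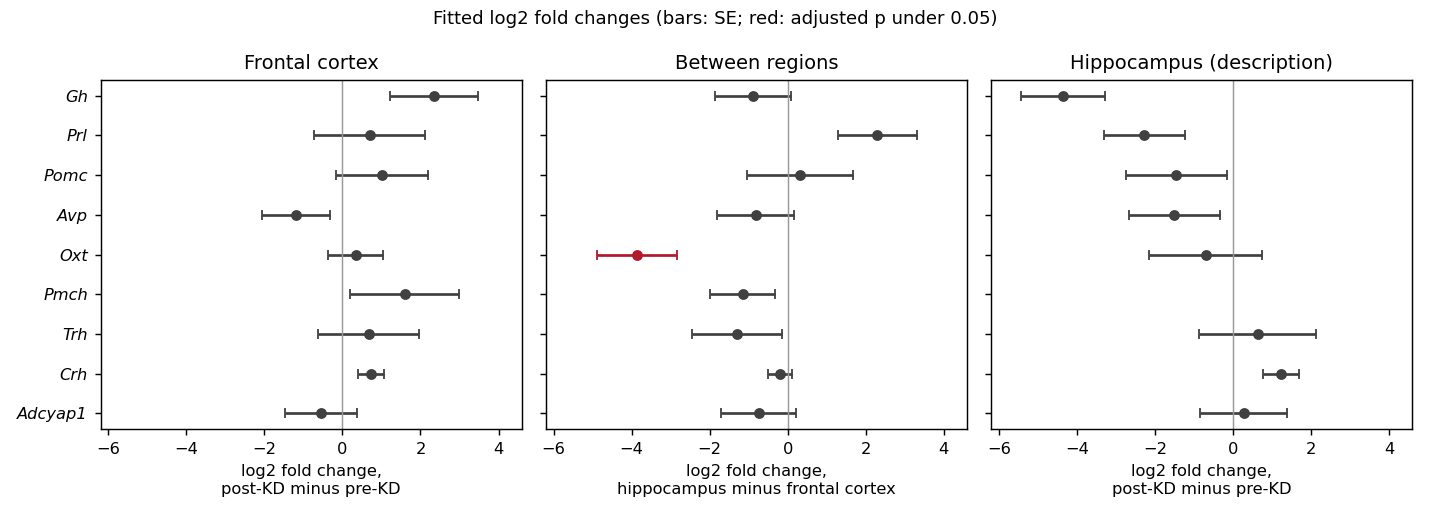
Fitted log2 fold changes (points) with SE (bars) of the 9 genes in the frontal cortex (post-KD minus pre-KD), between regions (hippocampus minus frontal cortex) and, as a description, in the hippocampus (post-KD minus pre-KD, without Pmch). Oxt between regions, at -3.86, is in red as past an adjusted p of 0.05.

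Of the other 7 genes tested between regions, 0 passed the adjusted threshold. Prl was higher in the hippocampus in 6 cohorts, lower in 1 and at 0 in both libraries of 13, with a log2 fold change of 2.30 ± 1.01 (SE, p = 0.0225, adjusted p = 0.326), where 10.9% of all genes had an unadjusted p under 0.05. Without pair 3 it was 1.22 (p = 0.215), without pair 8 it was 1.64 (p = 0.127) and without the pre-KD cohorts of both it was 0.96 (p = 0.336), so the unadjusted call rested on these cohorts. Without the cohort block the value was 3.27 (adjusted p = 0.0226). Gh, described without a test, was higher in the hippocampus in 6 cohorts, lower in 12 and equal in 2. Its mean was 11.3 CPM in hippocampal and 3.02 in frontal cortical libraries, yet the fitted log2 value with a cohort term was -0.89 and without it 1.11. Crh was close to equal, at 31.8 ± 22.7 CPM in hippocampal and 34.3 ± 22.3 in frontal cortical libraries (mean ± SD, n = 20 each), higher in the hippocampus in 10 of 20 cohorts. Its log2 fold change was -0.19 ± 0.31 (SE, adjusted p = 0.895). Pomc, Avp, Pmch, Trh and Adcyap1 had adjusted p values of 0.703 to 0.972.

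Both regions of a cohort come from recipients of the same stool sample, so their libraries were set side by side. Whether the same 6 mice gave both pools is not stated. High Gh libraries of the regions came from different cohorts. The 3 hippocampal libraries with the most Gh, pre-KD pairs 8, 3 and 7, had 0 Gh counts in the frontal cortex of the same cohort. Conversely, the 3 frontal cortical libraries with the most, post-KD pairs 6, 4 and 7 with 35, 16 and 13, had 0 in the hippocampus. Only 3 cohorts had Gh in both regions, with 1 to 7 counts in each library. The hippocampal counts are those that chose the set, so this is a description with no test.

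Prl was found in both regions of 3 cohorts, though its level ranked differently in each. The 3 hippocampal libraries with the most Prl, with 187, 123 and 53 counts, were of 3 of the 4 cohorts with any frontal cortical Prl, which there had 1, 3 and 18 counts. These cohorts held 363 of 376 hippocampal and 22 of 27 frontal cortical Prl counts, and 13 cohorts had none in either region. The frontal cortical library with the second-highest count, pre-KD pair 2 with 5, had 0 hippocampal Prl counts. Between the regions Prl had r = 0.581 (permutation p = 0.0175, adjusted p = 0.123 over 7 genes) and rho = 0.573 (permutation p = 0.00805, adjusted p = 0.0563), neither past the adjusted threshold and with most points at 0. Without the 2 cohorts farthest from the hippocampal median r was 0.647, within pre-KD 0.428 and within post-KD 0.855. For the other 6 genes with enough counts, adjusted permutation p values were 0.627 to 0.868 for r and 0.602 to 0.845 for rho. Crh had r = 0.04 (permutation p = 0.868) and rho = 0.206 (permutation p = 0.380).

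**Figure D4:**
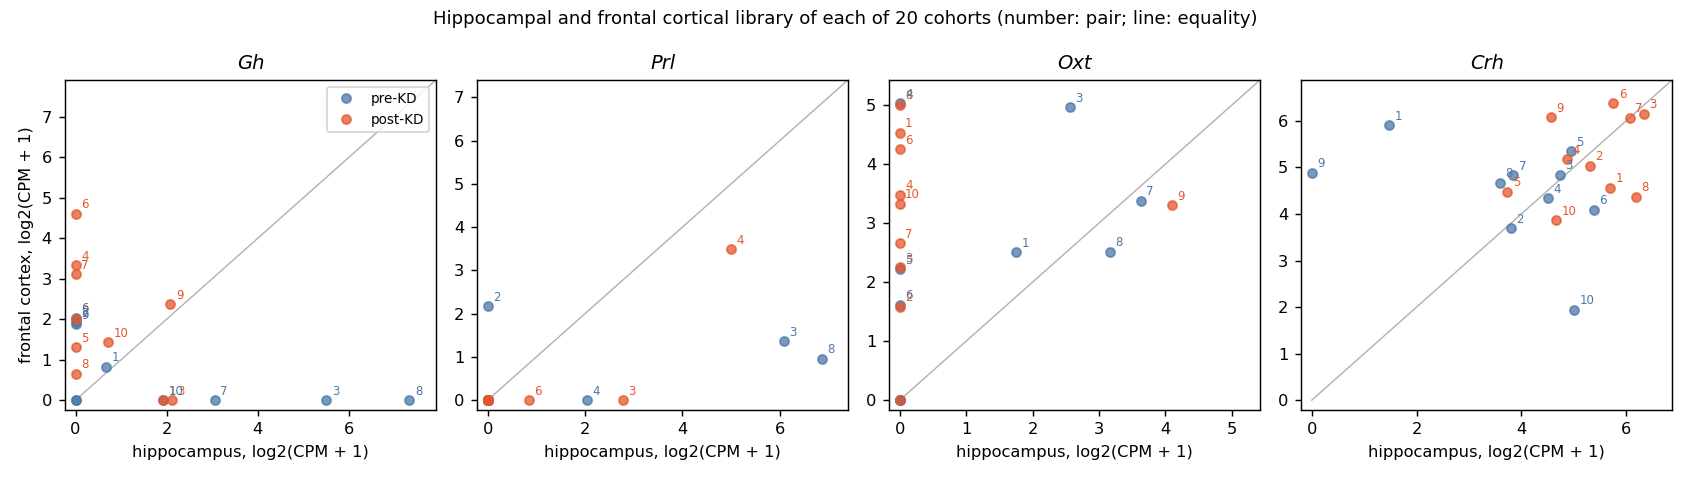
Level of Gh, Prl, Oxt and Crh as log2(CPM + 1) in the hippocampus (x axis) and frontal cortex (y axis) of each of 20 cohorts, with pair numbers, blue for pre-KD and red for post-KD, and a line of equality. Gh points lie along both axes, Prl has 3 cohorts with counts in both regions, Oxt has more points at 0 in the hippocampus, and Crh points spread around the line.

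Within the frontal cortex, 36 pairs of genes were compared and 0 passed the adjusted threshold by r or rho. The strongest was Avp with Oxt, with r = 0.607 (permutation p = 0.00545, adjusted p = 0.196) and rho = 0.679 (permutation p = 0.00154, adjusted p = 0.0554). It was 0.698 within pre-KD and 0.639 within post-KD libraries. These are the genes with a shared read-length stretch, and its part in the relation was not tested. In the hippocampus Avp and Oxt had r = 0.231 (permutation p = 0.329, adjusted p = 0.691 over 21 pairs) and rho = 0.245 (permutation p = 0.297, adjusted p = 0.686).

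Receptors of these peptides were measured in both regions. Of 20 receptor and binding protein genes, 12 had enough counts, and 0 of 12 passed the adjusted threshold between post-KD and pre-KD frontal cortex, where 0.0056% of all genes did (median log2 fold change 0.04, against 0.01 over all genes). Between regions 1 of 12 passed, against 2.85% of all genes. It was Prlr, the prolactin receptor, at 38.9 ± 32.8 hippocampal and 7.62 ± 7.79 frontal cortical CPM (mean ± SD, n = 20 each; log2 fold change 2.5 ± 0.44, SE, adjusted p = 3.31e-06). Prlr is also made by choroid plexus, of whose markers 9 of 9, Prlr included, had a higher fitted level in the hippocampus. Of these markers, 6 passed the adjusted threshold, with Ttr at 1589 and 140 CPM. Their part in the Prlr value was not tested. In pre-KD pairs 3 and 8, with the most Prl, Prlr had 53 and 41 counts, near its pre-KD median of 49.5. Adcyap1r1, the PACAP receptor, was the most abundant on the list, at 119 hippocampal and 104 frontal cortical CPM, and the ACTH receptor Mc2r and the vasopressin receptors Avpr1b and Avpr2 were at 0 in all libraries. Ghr, the growth hormone receptor, had 11.1 and 11.4 CPM.

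Of 19 genes of the growth hormone axis, 15 were tested in the frontal cortex and between regions and 0 passed the adjusted threshold in either, with medians of 0.06 and -0.14. Over all genes 0.0056% and 2.85% passed, so a count of 0 in 15 genes was near the background. At an unadjusted p under 0.05 in the frontal cortex, 2 of 15 were higher post-KD, against 5.01% of all genes. They were Ghrh (adjusted p = 0.122), with all its 17 counts in the library of pair 9 and no pre-KD counts, and Stat5a (adjusted p = 0.214), a transcription factor of cytokine and growth hormone signalling. Stat5a had 1 count in the pre-KD libraries and 27 in the post-KD ones, 22 of them in pair 6 and 5 in pair 2. Ghrh and Stat5a reached the 10 counts needed for the fit only through post-KD libraries, so nothing is read from these calls. Socs2, a feedback inhibitor that growth hormone signalling induces, had log2 fold changes of 0.45 ± 0.26 in the frontal cortex (SE, adjusted p = 0.653) and 0.31 ± 0.23 between regions (SE, adjusted p = 0.709). Igf1r had -0.12 and -0.04. Of 11 genes of peptide processing, 0 passed in the frontal cortex (0.0056% of all genes) and 2 between regions (2.85% of all genes). Between regions Cpe, a carboxypeptidase that trims prohormones, was higher in the hippocampus (0.21 ± 0.06, SE, adjusted p = 0.0262) and Pcsk1n, an inhibitor of a prohormone convertase, was lower (-0.37 ± 0.08, SE, adjusted p = 0.00017).

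Peptides of local forebrain neurons were compared in the same way. Of 14 such genes, 0 passed between post-KD and pre-KD frontal cortex, against 0.0056% of all genes. Between regions 5 were lower in the hippocampus, against 1.98% of all genes. In the other direction 1 passed, Grp (2.44 ± 0.65, SE, adjusted p = 0.00999). The enkephalin gene Penk had the largest log2 difference of the 4 lower genes named here (-3.32 ± 0.16, SE, adjusted p = 1.62e-91), followed by Tac1 (-3.00), Cartpt (-2.41) and Npy (-1.11). Penk had 25.6 ± 18.9 hippocampal and 210 ± 46.2 frontal cortical CPM (mean ± SD, n = 20 each). Striatal markers, 6 of 6 tested, were also lower in the hippocampus, and their part in these values was not tested.

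The genes with the most similar pattern included sparse and well-detected ones. For hippocampal Gh the highest Pearson's r of log2(CPM + 1) over 20 libraries was with Ankub1 (0.891), which had 19 counts in 3 libraries, and for Prl with Haus7 (0.886), with 27 counts in 7. For hippocampal Oxt it was Map3k8 (0.861) and for Crh Cdh11 (0.739). In the frontal cortex Crh was most like Slf1 (0.875), Tmem70 (0.817) and Zc3h18 (0.789), and Gh was most like Gemin8 (0.756, 58 counts in 14 libraries), Ddn (0.753, 10569 counts in 20) and Emc6 (0.728, 2192 counts in 20). Each is the highest value over all genes tested in the region and comes with no test.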

How the data were processed

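The authors deposited 1 table of read counts per region, unnormalized, for 47643 Ensembl genes in 20 libraries. According to the methods, paired reads of 69 bp were aligned to mm10 with STAR and counted with HTSeq, and the submitters' processing notes name STAR 2.5.2a and HTSeq 0.6.0. The library kit is TruSeq in the labels. The annotation release and the strand setting are not given in the sources used here. Of the identifiers, 47224 were matched to GENCODE M21. Of 180 pairs of libraries within a group, 0 were identical.

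The quasi-likelihood test of edgeR 4.0.16 (R 4.3.3) with TMM factors was applied to genes with 10 or more counts summed over a fit, by condition within each region and by region with a term for each of 20 cohorts. P values were adjusted over all genes by the Benjamini-Hochberg method, and the SE was derived from the log2 fold change and its F statistic. Correlations used log2(CPM + 1), genes with at least 20 counts, and two-sided permutation tests with 100000 resamples (numpy 2.4.6). Correlations of hippocampal Gh were not tested. Exact 0 counts were kept.

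The 9 genes and all lists were chosen with earlier results of these data known. Named genes are the 9, list genes past the adjusted threshold (at most 5 per list) or of the highest 3 by CPM, pituitary and hypothalamus genes with 3 or more counts in a library, and the 3 genes most similar to each of the 9. Genes at 0, Parpbp, Mc2r, Avpr1b, Avpr2, Ghr, Stat5a and Prlr counts by library were named after their values were seen.

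Alternatives were RLE factors, no filter, filterByExpr, DESeq2 1.42.0, the donor pair as a block, leaving out each pair and a pseudocount of 5. Fits without the pre-KD libraries or cohorts of pairs 3 and 8 were added after the data were seen. Same-numbered libraries were taken to share the stool donor, whom the labels give only as a number. After removing group means, their correlations across genes were -0.0283 to 0.031 in the hippocampus and -0.0543 to 0.0308 in the frontal cortex, with 0 above 0.1, and the fit without a block was kept. The fits were tested on simulated data, with 16549 genes tested for the hippocampus, 17010 for the frontal cortex and 18662 between regions. Of tested genes changed 4-fold, 46 of 97 (47.4%), 49 of 98 (50%) and 47 of 94 (50%) were recovered, in that order. Unchanged genes past the adjusted threshold numbered 13, 27 and 2, and 7.96%, 7.32% and 3.54% of unchanged genes had an unadjusted p under 0.05, in the same order.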

Additional observations from a re-analysis of the deposited data

Results flagged for a closer look

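In groups of 10 libraries, a highest or lowest library was marked where its gap to the next one exceeded Dixon's 95% critical value as a share of the range. Hippocampal Gh chose the set and was left out. Of 33 other groups of the 9 genes with any counts, 17 were marked, each for its highest library, where chance marks about 1 in 20 groups of values with normal spread, and many of these groups have most libraries at 0. The cause was not tested in any of them.

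In the pre-KD hippocampus the gap was 0.7716 of the range for Pomc in pair 7, 0.6595 for Avp in pair 6, 0.6321 for Adcyap1 in pair 6 and 0.5425 for Trh in pair 3. In the post-KD hippocampus it was 0.81 for Prl in pair 4, 0.5832 for Avp in pair 3 and 0.6953 for Trh in pair 9. It was 1.0 for both Oxt and Pmch in pair 9, the sole library with counts of these genes in that group. In the pre-KD frontal cortex it was 0.5542 for Prl in pair 2 and 1.0 for Pmch in pair 4.

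In the post-KD frontal cortex it was 0.6123 for Gh in pair 6, 1.0 for Prl in pair 4 and 0.5024 for Pomc in pair 4. There it was also 0.5007 for Pmch in pair 10, 0.6687 for Trh in pair 3 and 0.5537 for Adcyap1 in pair 9. The marked libraries were of 7 pair numbers. Pair 9 post-KD was marked for Oxt, Pmch and Trh in the hippocampus and for Adcyap1 in the frontal cortex, and pair 4 post-KD for Prl in both regions and for Pomc in the frontal cortex.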

How the results depend on the processing

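Counts of genes past the thresholds moved with the filter and the tool. Of the hippocampal contrast by condition, 1 gene passed the adjusted threshold, against 1291 with no filter and 0 with filterByExpr, DESeq2 and the replicate block, and 0 to 1 when each pair was left out. At an unadjusted p under 0.05 it had 1762, against 2931 with no filter, 221 with filterByExpr, 599 with DESeq2, 348 with the replicate block and 1636 to 1756 without a pair. In the frontal cortex 1 passed the adjusted threshold, against 2 with DESeq2, 3 with the replicate block and 1 without any pair. Unadjusted it had 1731, against 3035 with no filter, 407 with filterByExpr, 825 with DESeq2, 548 with the replicate block and 1575 to 1719 without a pair. Between regions 554 passed, against 1033 with DESeq2, 1935 with no replicate block and 448 to 555 without a pair, and unadjusted 2117, against 3474 with no replicate block and 1857 to 2146. None of the 9 genes passed the adjusted threshold in the frontal cortex in any of these fits that tested it. With filterByExpr, Crh was the only one of the 9 left to test in the contrasts by condition. In the hippocampus Gh, which chose the set, passed with no filter, from which nothing is read.

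Log2 fold changes of 22 comparisons of single genes changed sign. In the hippocampus these were Prl (1.07) and Trh (-1.40) with DESeq2, Adcyap1 with the replicate block (-0.77) and without pair 1, 3 or 8 (range without a pair -0.34 to 1.30), Oxt without pair 7 (range -5.24 to 0.083) and Trh without pair 9 (range -1.26 to 2.14). Without the pre-KD libraries of pairs 3 and 8 they were Prl (3.01) and Adcyap1 (-0.0052). In the frontal cortex they were Prl with DESeq2 (-2.49) and the replicate block (-1.29), Trh without pair 3 (range -0.31 to 1.12) and Oxt without pair 8 (range -0.058 to 0.91). Between regions they were Gh (1.11), Trh (0.11) and Adcyap1 (0.48) with no replicate block, Pomc without pair 3, 6 or 7 (range -0.51 to 1.13) and without the pre-KD cohorts of pairs 3 and 8 (-0.17), and Crh without pair 9 (range -0.41 to 0.057). The cause was not tested. In simulated data, 10 of 89 tested 2-fold changes were recovered in the hippocampus (11.2%), 21 of 94 in the frontal cortex (22.3%) and 16 of 95 between regions (16.8%).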
